A study of Arabidopsis thaliana and Zea mays with 822 samples.

Results

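FWA gRNA5 is a guide RNA that directs the compact nuclease CasΦ to a site just upstream of the Arabidopsis thaliana gene FWA (AT4G25530). All amplicon libraries labelled with this guide and their controls were taken, which gave 37 of the 812 pattern tables of the series: 29 from transfected protoplasts and 8 controls. The study compared guides, enzymes, delivery routes and plant backgrounds for editing by CasΦ, and read each target by amplicon sequencing. Mesophyll protoplasts came from plants aged 3-4 weeks, either of wild type Columbia (Col-0) or of fwa-4, an epi-mutant of FWA in the same accession. The enzymes were wild-type CasΦ (WTCasΦ) and the engineered forms vCasΦ, in which the negatively charged tip of a helix is replaced with a linker, and nCasΦ, in which residues of that tip are changed to alanine. Delivery was by ribonucleoprotein (RNP), the purified enzyme loaded with guide, or by a plasmid with CasΦ under a UBQ10 promoter and the guide under a U6 promoter.

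The 29 edited libraries fell into 5 experiments. The guide scan held 1 library of WTCasΦ RNP. The genotype experiment held WTCasΦ RNP in Col-0 and in fwa-4, with 2 libraries each. The plasmid experiments, 1 in fwa-4 and 1 in Col-0, held 2 libraries for each of WTCasΦ, nCasΦ and vCasΦ. The RNP enzyme experiment, in fwa-4, held 4 libraries for each enzyme. Controls were 1 unedited library for the guide scan, for each genotype of the genotype experiment and for each plasmid experiment, and 1 RNP with a scrambled guide for each enzyme of the RNP enzyme experiment. The guide scan is labelled wild type while the study's own account of it names fwa-4, so that library entered no genotype comparison. Labels number the replicates but do not say whether they came from separate protoplast preparations, so p-values measure the spread between these samples, which may be technical. Depth ran from 1529113 to 2939293 reads per library. No files of replicates were identical, and the RNP enzyme libraries of replicates 3 and 4 stood apart from those of replicates 1 and 2 in several measures, which are given for both sets.

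FWA encodes a homeodomain transcription factor whose promoter carries DNA methylation at tandem repeats in wild-type plants, where the gene is silent in adult tissue. In fwa epi-mutants this methylation is lost heritably with no change of sequence, and the gene is expressed ectopically. CasΦ reads a short T-rich protospacer-adjacent motif (PAM) at the 5′ side of its site and leaves staggered ends at the PAM-distal side, where end joining commonly yields deletions of several bases.

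The gRNA5 site lies on the minus strand of chromosome 4 at 13038214 to 13038233 (RefSeq TAIR10.1), with its TTG PAM at 13038234 to 13038236. It lies 127 to 146 bp upstream of the start of FWA, whose gene model in that annotation spans 13038360 to 13042464 on the plus strand. The site occurs 1 time in the 7 sequences of the assembly, is 80% A and T, and holds no CG dinucleotide. The sites of gRNA4 and gRNA6 overlap it by 17 and 14 bases. They are shown because their deletions are compared with those of gRNA5 (capitals mark the 20-base site, small letters the PAM, each 5′ to 3′ on its own strand).
FWA gRNA4 site with PAM: ttaTGGTTCTATACTAATATCAA
FWA gRNA5 site with PAM: ttgATATTAGTATAGAACCATAA
FWA gRNA6 site with PAM: ttaGTATAGAACCATAACAAAAG

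Nucleotides (nt) of the gRNA5 site are counted from 1 next to the PAM to 20 at the PAM-distal end, and on beyond it. A run of 12 adenines at 13038196 to 13038207, nt 27 to 38, begins after 6 further bases. The stretch from 13038189 to 13038241 on the minus strand is printed below with the site and then the run in capitals.
Site: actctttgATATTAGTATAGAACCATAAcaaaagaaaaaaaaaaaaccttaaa
Adenine run: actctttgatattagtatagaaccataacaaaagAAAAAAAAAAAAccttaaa

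The leading deletions are shown in the same stretch, with the deleted bases in capitals as the files place them. In the pattern labels, the number before the colon is the first deleted base, with -1 at nt 18 and 1 at nt 19, and the number after it is the length.
-1:5D: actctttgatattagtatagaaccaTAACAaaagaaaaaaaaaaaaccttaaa
-1:6D: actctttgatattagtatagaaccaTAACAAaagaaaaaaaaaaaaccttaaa
-3:6D: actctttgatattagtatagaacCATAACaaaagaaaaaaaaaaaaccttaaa
3:3D: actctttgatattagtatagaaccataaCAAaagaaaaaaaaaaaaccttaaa
-4:8D: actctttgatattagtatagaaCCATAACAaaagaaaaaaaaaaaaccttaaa
-4:9D: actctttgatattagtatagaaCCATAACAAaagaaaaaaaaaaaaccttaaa
-4:10D: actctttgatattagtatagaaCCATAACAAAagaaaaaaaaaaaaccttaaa
-4:11D: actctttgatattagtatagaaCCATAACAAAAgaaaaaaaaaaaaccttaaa
-4:14D: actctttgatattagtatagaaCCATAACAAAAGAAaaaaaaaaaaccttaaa
-7:13D: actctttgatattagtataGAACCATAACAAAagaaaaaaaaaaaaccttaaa

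A read counted as edited when its pattern removed or added 3 bp or more, was seen in 100 or more reads of the library, and did not lie wholly in the adenine run. Editing efficiency is the share of such reads among all reads of a library. The authors set this criterion once they had looked at their controls, so controls at 0 follow at least in part from the rule. By this measure all 8 controls were at 0 edited reads, and 27 of the 29 edited libraries were above 0. Counts without the read minimum are set against controls further on. The 2 edited libraries at 0 were WTCasΦ plasmid in Col-0. Wilson 95% intervals of single libraries were narrow at this depth and cover counting error only.

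The same few deletions made up most edited reads wherever gRNA5 edited. Over the 27 libraries with edited reads, 414 patterns were counted, 316 of them single deletions. The 10 shown above held a mean of 68.9% of edited reads per library. They were chosen for the highest mean shares over these same libraries, so a large joint share follows in part from the choice. That mean includes the RNP Col-0 libraries, with 1 counted pattern each. The 5-bp deletion -1:5D (13038212 to 13038216) was the most frequent pattern in 25 of 27 libraries, with a mean share of 22.4% of edited reads. Next came -4:10D at 9.59%, -4:11D at 6.30%, -1:6D at 6.03%, -3:6D at 5.82%, -4:9D at 5.71% and 3:3D at 5.19%. The last 3 of the 10, -4:8D, -4:14D and -7:13D, had mean shares of 2.95%, 2.88% and 2.02%. The order behind -1:5D rested on libraries with few patterns, since RNP Col-0 replicate 2 counted only -4:10D, at 100% of its 131 edited reads. In the 24 libraries with at least 10 counted patterns, -1:5D averaged 19.5%, -1:6D 6.79%, -3:6D 6.55%, -4:10D 6.07% and -4:11D 6.04%.

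Several features were common to these 10 deletions. All 10 could be aligned in more than 1 way, because at least 1 base is repeated across the 2 junctions of each, and 7 had repeats of at least 2 bases. The share with such repeats among all possible deletions of this A-rich stretch was not computed, so no preference for repeats is read from these counts. The repeat at -1:5D is the dinucleotide ca, and the longest, agaa, lies at -4:14D. Of the 10, 5 patterns, from -4:8D to -4:14D, share their first deleted base at nt 15 and differ in where they end. As labelled, 9 of the 10 crossed the end of the site and 9 left the adenine run whole. The exceptions were 3:3D, labelled wholly beyond the site, and -4:14D, labelled as reaching into the run. Both depend on placement. An equivalent alignment of 3:3D starts within the site at nt 19, and 1 of -4:14D starts at nt 11 and ends before the run. Of the 316 single-deletion patterns, 99.7% carried a label at the PAM-distal end of their equivalent alignments. The start and end positions given here are those of that placement.

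In the 24 libraries with at least 10 counted patterns, nt 21, the first base beyond the site, was the base most often removed. It was absent from 89.9% to 100% of single-deletion reads in each of them. A deletion began within nt 14 to 18 in 54.7% to 79.0% of such reads and ended within nt 21 to 26 in 66.9% to 86.8%. A repeat of at least 1 base at the junctions was present for 88.1% to 94.9% of reads, and of at least 2 bases for a median of 65.4%. These shares too have no background to be set against. These ranges take in all 3 enzymes and both delivery routes. Insertions made up at most 0.347% of edited reads in any library, and patterns with more than 1 change at most 4.57%, in vCasΦ plasmid Col-0 replicate 2.

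The PAM was usually kept. Deletions touching it made up 0% to 2.91% of single-deletion reads in all but 1 of the 27 libraries. That library was WTCasΦ plasmid fwa-4 replicate 1 at 19.0%, which had 16 counted patterns, among them -21:45D with 524 reads, -28:40D with 315 and -31:38D with 278. Deletions over 20 bp held 23.6% of its reads, and 2.30% to 14.8% in the other 23 libraries with at least 10 patterns.

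Long deletions recurred too. The pattern -9:42D, singled out after its values were seen, removes nt 10 to 51 (13038183 to 13038224), the PAM-distal part of the site and the whole adenine run, with the 4-base repeat agta at its junctions. It is printed below from 13038178 to 13038241 with the deleted bases in capitals.
-9:42D: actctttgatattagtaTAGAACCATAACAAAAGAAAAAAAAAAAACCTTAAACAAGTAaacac
This deletion was counted in 17 of 27 libraries and held up to 3.87% of edited reads, in a vCasΦ plasmid library of Col-0. Controls held at most 1 read of it.

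Editing by gRNA5 was higher in fwa-4 than in Col-0 protoplasts with every enzyme tested. With WTCasΦ RNP, efficiency was 3.13% and 2.55% in fwa-4 and 0.00831% and 0.00851% in Col-0, where 127 and 131 reads of 1 pattern each passed the criterion. The means of 2.84% and 0.00841% differ 338-fold, a value that the read minimum sets in part. With site indels of at least 3 bp at any count, the means were 2.98% and 0.0262%, which is 114-fold. With WTCasΦ plasmid, fwa-4 reached 0.206% and 0.256%, while both Col-0 libraries were at 0, with 100 reads of a pattern corresponding to 0.00403% and 0.00494%. With nCasΦ plasmid, fwa-4 gave 6.75% and 5.44% against 0.526% and 0.580% in Col-0, an 11.0-fold difference of means. With vCasΦ plasmid, fwa-4 gave 8.57% and 9.57% against 3.51% and 2.78%, a 2.89-fold difference.

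The fwa-4 and Col-0 libraries did not overlap in any of these 4 pairs of groups. The 4 differences were 2.83, 0.231, 5.54 and 5.93 percentage points in the order given, with a mean of 3.63 (two-sided exact permutation test within the 4 pairs, 8 against 8 libraries, p = 0.00154, the smallest of its 1296 arrangements). In the genotype experiment both backgrounds were edited in 1 experiment, whereas the plasmid libraries of fwa-4 and Col-0 belong to separate ones, in which genotype and experiment cannot be told apart. Between vCasΦ and nCasΦ plasmids, the ratio of geometric mean efficiencies was 1.49 in fwa-4 and 5.65 in Col-0 (two-sided exact permutation test of the difference of log2 ratios, p = 0.333, smallest possible 0.0556). The arrangements of that test mix libraries that already differ in efficiency, so it cannot decide whether the ratios differ.

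The leading deletions made up only part of the low-level indel reads in Col-0. With the read minimum dropped, WTCasΦ RNP libraries of Col-0 had 196 and 610 reads with site indels of at least 3 bp. The 10 leading deletions held 131 and 400 of these, and in replicate 1 the counted -1:5D alone had 127. WTCasΦ plasmid libraries of Col-0 had 348 and 168 such reads, with 72 and 33 of them in the 10 deletions. The control of that experiment had 247, with 57 in the 10 deletions. The 5 controls aligned to gRNA5 held 51 to 80 reads of these patterns each, 0.00196% to 0.00327% of all reads, so the WTCasΦ plasmid libraries of Col-0 were not above the level of controls at this depth. In Col-0 replicate 2 of the RNP, the counted pattern was -4:10D, with 131 reads, beside 78 reads of -1:5D.

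By plasmid the enzyme forms were separated without overlap. In fwa-4, vCasΦ plasmid averaged 9.07% ± 0.709 (SD, n = 2), nCasΦ plasmid 6.09% ± 0.921 (SD, n = 2) and WTCasΦ plasmid 0.231% ± 0.0358 (SD, n = 2). These are 39.3-fold for vCasΦ over WTCasΦ, 26.4-fold for nCasΦ over WTCasΦ and 1.49-fold for vCasΦ over nCasΦ. In Col-0, vCasΦ plasmid averaged 3.14% ± 0.512 (SD, n = 2) and nCasΦ plasmid 0.553% ± 0.0383 (SD, n = 2), which is 5.68-fold. The order vCasΦ, nCasΦ, WTCasΦ was thus the same in both backgrounds. Over both, vCasΦ minus WTCasΦ was 5.99 percentage points, nCasΦ minus WTCasΦ 3.21 and vCasΦ minus nCasΦ 2.78. Each had adjusted p = 0.0556 by a two-sided exact permutation test within background, the smallest p that the 36 arrangements allow, so none could pass 0.05.

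By RNP in fwa-4 the enzymes overlapped. WTCasΦ gave 3.34%, 2.82%, 5.94% and 5.20% in replicates 1 to 4. For nCasΦ the values were 3.26%, 17.2%, 18.4% and 17.9%. For vCasΦ they were 4.64%, 6.25%, 15.4% and 15.4%. Replicate 1 of nCasΦ lay within the range of WTCasΦ, and the other 3 lay above every WTCasΦ and vCasΦ library. Means were 4.32% ± 1.48 for WTCasΦ, 14.2% ± 7.30 for nCasΦ and 10.4% ± 5.76 for vCasΦ (SD, n = 4 each). In two-sided exact permutation tests of 4 against 4 libraries, whose smallest p is 0.0286, vCasΦ minus WTCasΦ was 6.08 percentage points (adjusted p = 0.171), nCasΦ minus WTCasΦ was 9.86 (adjusted p = 0.171), and vCasΦ minus nCasΦ was -3.79 (adjusted p = 0.343). None of the 3 differences passed the threshold.

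Much of that spread lay between replicates 1 and 2 and replicates 3 and 4. Within these sets, vCasΦ minus WTCasΦ was 2.37 and 9.79 points, nCasΦ minus WTCasΦ 7.17 and 12.6, and vCasΦ minus nCasΦ -4.80 and -2.77. Directions were the same in both sets. With the sets as strata the adjusted p-values were 0.167, 0.167 and 0.278 (two-sided exact permutation test, 36 arrangements).

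RNP and plasmid delivery could be compared for all 3 enzymes in fwa-4. Mean efficiency by RNP was 18.7-fold that by plasmid for WTCasΦ, with no overlap, 2.33-fold for nCasΦ and 1.15-fold for vCasΦ, with overlap in the last 2. The mean difference of 4.51 percentage points did not pass the threshold (two-sided exact permutation test within enzyme, p = 0.0779, 3375 arrangements). It depended on single libraries, being 5.72 without RNP nCasΦ replicate 1 (p = 0.0182) and 5.15 without RNP vCasΦ replicate 1 (p = 0.0373), both by the same exact permutation test. The ratio of vCasΦ to WTCasΦ, from geometric means, was 39.5 by plasmid and 2.20 by RNP, a difference of 4.16 on the log2 scale (exact permutation test, p = 0.0356, adjusted p = 0.107 over 3 ratios). That test exchanged RNP and plasmid libraries within each enzyme, so it cannot separate a difference of ratios from a difference by delivery. The RNP and plasmid libraries come from separate experiments, so delivery and experiment cannot be told apart.

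Deletions were small throughout, with 5 bp the commonest size in most libraries. The mean size of single deletions, weighted by reads, was 9.01, 8.06, 9.83 and 9.69 bp for WTCasΦ RNP in replicates 1 to 4 of the RNP enzyme experiment. It was 8.79, 8.97, 9.47 and 9.48 bp for nCasΦ RNP. It was 9.46, 9.20, 9.75 and 9.89 bp for vCasΦ RNP. Replicates 1 and 2 ran from 8.06 to 9.46 bp and replicates 3 and 4 from 9.47 to 9.89 bp, so these sets did not overlap.

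Plasmid deletions of the engineered enzymes were longer. Mean sizes were 12.4 and 11.2 bp for vCasΦ plasmid in fwa-4, and 11.8 and 11.4 bp in Col-0. For nCasΦ plasmid they were 10.2 and 10.1 bp in fwa-4, and 9.89 and 10.8 bp in Col-0. All 8 lay above every RNP library of their enzyme. WTCasΦ plasmid in fwa-4 was split, at 16.4 and 8.15 bp. The WTCasΦ RNP libraries of fwa-4 in the genotype experiment had 8.59 and 8.79 bp, and the guide scan 9.86 bp.

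RNP deletions were 2.10 bp shorter than plasmid deletions on average over enzymes in fwa-4 (two-sided exact permutation test within enzyme, adjusted p = 0.0222). They also began 1.49 nt nearer the PAM-distal end (exact permutation test, adjusted p = 0.00296). By enzyme the size differences were -3.12 bp for WTCasΦ, -2.22 for vCasΦ and -0.955 for nCasΦ, and the start differences 2.68, 1.22 and 0.562 nt. The size difference rested on WTCasΦ plasmid replicate 1, without which it was -0.727 bp (exact permutation test, adjusted p = 0.202), and it was -1.91 and -2.29 bp without vCasΦ plasmid replicate 1 or 2 (adjusted p = 0.0578 for each, exact permutation test). With each pattern weighted equally the size difference turned to 0.903 bp. It did not pass with a replicate block or with RNP replicates 3 and 4 alone. Starts kept their call whichever library was left out, at 0.637 to 2.34 nt. The start difference did not pass with each pattern weighted equally (0.357 nt, adjusted p = 0.967), with a replicate block (1.51 nt, adjusted p = 0.156) or with RNP replicates 3 and 4 alone (1.47 nt, adjusted p = 0.0926), all by exact permutation test. For size and start alike, the block gave the smallest unadjusted p that its pairs allow, so it could hardly pass.

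Shares of the leading deletion and of long ones are given by enzyme, since WTCasΦ plasmid libraries lay on both sides of the RNP libraries. The share of -1:5D among edited reads was 19.0% to 26.8% in the 12 libraries of the RNP enzyme experiment. For vCasΦ plasmid it was 9.57% and 13.3% in fwa-4 and 10.3% and 14.3% in Col-0, below each of those 12. For nCasΦ plasmid it was 20.9% and 18.9% in fwa-4 and 22.3% and 12.4% in Col-0. Deletions of 12 to 20 bp held 25.9% ± 0.853 (SD, n = 2) of reads for vCasΦ plasmid in fwa-4 and 16.5% ± 0.335 (SD, n = 4) for vCasΦ RNP. Deletions labelled as reaching into the adenine run held 25.3% to 26.1% of reads in the 4 vCasΦ plasmid libraries. In the 4 nCasΦ plasmid libraries they held 15.2% to 20.7%, and in the 12 RNP libraries 9.43% to 17.4%. For WTCasΦ plasmid in fwa-4, replicates 1 and 2 had 13.1% and 36.8% of -1:5D, 23.1% and 3.02% of deletions of 12 to 20 bp, and 30.3% and 3.02% of deletions reaching the run. The second of these libraries was above all 12 RNP libraries in -1:5D and below them in the other shares. In vCasΦ plasmid Col-0 replicate 1, -4:10D led with 12.8%, ahead of -1:5D at 10.3%.

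Among enzymes, the size difference between vCasΦ and nCasΦ passed the test. Deletions of vCasΦ averaged 1.13 bp longer than those of nCasΦ over 3 experiments, with 1.67 bp in fwa-4 plasmids, 1.31 bp in Col-0 plasmids and 0.396 bp in fwa-4 RNPs (two-sided exact permutation test within experiment, 8 against 8 libraries, p = 0.00556, adjusted p = 0.0222). It did not pass with each pattern weighted equally (1.20 bp, adjusted p = 0.427) or by medians (1 bp, adjusted p = 0.131), by exact permutation test. The RNP values of these enzymes overlapped, and the plasmid values did not. Their mean starts differed by -0.396 nt (exact permutation test, adjusted p = 0.123), which passed without Col-0 nCasΦ plasmid replicate 2 at -0.470 nt (adjusted p = 0.0218). Against WTCasΦ, vCasΦ differed by -0.0216 bp and nCasΦ by -1.05 bp in mean size (exact permutation test, adjusted p = 0.981 for each). Both turned positive without WTCasΦ plasmid fwa-4 replicate 1, at 2.04 and 1.01 bp. The start difference between vCasΦ and WTCasΦ was 0.407 nt (adjusted p = 1, exact permutation test), and -0.867 nt (adjusted p = 0.0119) without that library, while nCasΦ minus WTCasΦ was 0.982 nt and -0.293 nt without it.

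No difference in size or start between genotypes passed the test on read-weighted means. The mean size in fwa-4 minus Col-0 was 0.384 bp (exact permutation test, adjusted p = 0.981), and the mean start -0.244 nt (exact permutation test, adjusted p = 1). Both signs turned without RNP Col-0 replicate 1, at -0.449 bp and 0.256 nt. That library had 1 counted pattern, as did RNP Col-0 replicate 2. With each pattern weighted equally, the size and start differences both passed, at 3.96 bp and -1.71 nt (exact permutation test, adjusted p = 0.0463 for each). Equal weight depends on how many rare patterns reach the read minimum, and the Col-0 libraries counted fewer patterns. By RNP the fwa-4 libraries counted 51 and 44 patterns, against 1 in each Col-0 library.

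The overlapping guides gave a comparison at nearly the same bases. In the RNP enzyme experiment, with 12 libraries a guide, gRNA5 edited more than gRNA4 by 4.77 percentage points and more than gRNA6 by 5.06 (two-sided permutation test within enzyme, all 343000 arrangements, adjusted p = 0.0124 for each). By enzyme, gRNA5 means were 4.32%, 10.4% and 14.2% for WTCasΦ, vCasΦ and nCasΦ. The corresponding means of gRNA4 were 1.54%, 7.00% and 6.06%, and those of gRNA6 1.64%, 3.87% and 8.24%. In replicates 1 and 2 alone the differences were 1.87 and 2.96 points (permutation test, adjusted p = 0.389 for each).

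Each guide left deletions at its own PAM-distal end. The leading pattern was 13038229 to 13038235 for gRNA4 in 12 of 12 libraries, 13038212 to 13038216 for gRNA5 in 12 of 12, and 13038204 to 13038208 for gRNA6 in 8 of 12. Although gRNA4 and gRNA5 cover the same 23 bases with their PAMs at opposite ends, their mean deletion midpoints were 13038233 and 13038214. The midpoint of gRNA6, whose site is shifted by 6 bases, was 13038208. Counted from each PAM with labels as deposited, gRNA5 deletions began 3.16 nt farther out than those of gRNA4 and 0.726 nt farther out than those of gRNA6 (permutation test, adjusted p = 1.17e-05 for each, from 343000 arrangements). The deposited labels place movable deletions at the PAM-side end for gRNA4 and at the PAM-distal end for gRNA5 and gRNA6, so part of the first difference is placement. With all guides placed alike it was 1.39 nt at the PAM-side end and 2.08 nt at the PAM-distal end (permutation test, adjusted p = 5.83e-06 and 1.17e-05). The difference from gRNA6 was then 1.26 and 0.726 nt. Deletions of gRNA5 were 0.610 bp longer than those of gRNA4 (adjusted p = 0.00296, permutation test), though 0.446 bp in replicates 1 and 2 alone (adjusted p = 0.0926, permutation test), and 1.62 bp shorter than those of gRNA6 (adjusted p = 0.000245, permutation test).

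Indels of at least 3 bp at the site and outside the run, of any read count, were compared with controls. They averaged 5.11 percentage points more in edited libraries than in the controls of their experiment over 8 strata, whose controls averaged 0.00942% (two-sided permutation test, p = 1.81e-05, the smallest of 110250 arrangements). In the WTCasΦ RNP libraries of Col-0 they were 0.0128% and 0.0396% of reads, and 0.00328% in the control. That control and the other shared controls were deposited with labels counted from the gRNA4 site, whose window of listed positions is not the same.

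Indels lying wholly in the adenine run were kept apart. They made up 0.0285% to 0.139% of reads in the 34 libraries aligned to gRNA5, and insertions of 1 bp were the largest class in each of them. The 5 controls held 0.0531% to 0.0786%. Edited minus control was -0.00866 percentage points over 5 strata (0.0544% against 0.0630%, two-sided permutation test, p = 0.436, 6125 arrangements), so no excess in their total was detectable. In the RNP enzyme experiment, replicates 1 and 2 lay at 0.0592% to 0.106% and replicates 3 and 4 at 0.0285% to 0.0410%, without overlap. The genotype experiment had the highest values, 0.128% and 0.136% in Col-0 and 0.139% and 0.117% in fwa-4.

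These low values depend on where the listed window ends. The files for gRNA5 list single-base indels at nt -5 to 34, so the window closes inside the run, which ends at nt 38. No deletion of 1 or 2 bp in the run was listed for any gRNA5 library. The 5 control libraries labelled from the gRNA6 site, whose window extends to 13038194 and covers the run, listed indels in it for 17.9% to 19.2% of reads, with 11.3% to 12.0% as deletions of 1 bp. The rate of run indels in gRNA5 libraries is therefore a partial count and was used only to compare libraries with the same window. 
Deletions of at least 3 bp within the run, looked at after their values were seen, did not follow the total. The 5 controls held 1 to 4 reads of them. The 12 libraries of the RNP enzyme experiment held 10 to 405, and the 4 fwa-4 plasmid libraries of nCasΦ and vCasΦ held 30 to 57, all above the controls. WTCasΦ plasmid libraries of fwa-4 held 2 and 1, and the 6 plasmid libraries of Col-0 held 1 to 12. Edited minus control was 0.00178 percentage points (two-sided permutation test, p = 0.200), and 0.00103 without RNP vCasΦ replicate 3 (permutation test, p = 0.0173). That library had 374 reads of a deletion of the whole run, 9:12D, which was at 0 in the 5 controls. It was left out after these reads were seen, so the p-value without it is no support for an excess over controls.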

How the data were processed

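Protoplast DNA was amplified over the target and sequenced, and the authors trimmed reads (Trim Galore), mapped them with BWA (version 0.7.17 in the submitters' processing notes) and exported a read count per indel pattern with CrispRVariants. Each deposited table holds these counts, not normalized, in 1 column per library. The build behind the amplicons is not given in the sources used here. Pattern labels were placed on TAIR10.1 by the bases of the listed substitutions, with 0 conflicting bases of 2101926 in edited libraries and 465738 in controls.

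From the counts, editing efficiency was the percent of reads in patterns of 100 or more reads that removed or added 3 bp or more, leaving out those wholly in an adenine run. Size, start and end were means over single-deletion reads. Wilson 95% intervals were computed, and a count of 0 allows up to 3 reads. Reads carry no molecular identifiers, so both cover counting error only. At this depth 3 reads are 0.000102% to 0.000196% of a library.

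Comparisons used two-sided exact permutation tests over libraries within strata, with all arrangements enumerated and Benjamini-Hochberg adjustment within each family (threshold 0.05), run with SciPy 1.17.1 and NumPy 2.4.6 under Python 3.11.15, and were tested on simulated data. Named patterns were the 10 with the highest mean share of edited reads over the libraries. Members, patterns and comparisons were chosen with earlier results of these data known. Alternatives were the read minimum, a minimum share, indels from 1 bp, each pattern weighted equally, medians, other placements of deletions, log2 values, a replicate block, subsets of replicates and leaving out each library.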

Additional observations from a re-analysis of the deposited data

Results flagged for a closer look

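The nCasΦ RNP library of replicate 1 in fwa-4 had an efficiency of 3.26%, while the other 3 libraries of its group ran from 17.2% to 18.4%. The gap to its neighbour was 0.924 of the range of the group. Of 18 combinations of a group of 4 libraries and a measure examined in this way 1 stood apart, and chance gives about 1 in 20. The measures of a group come from the same libraries, so these checks are not independent. A deletion of the whole adenine run, which editing efficiency leaves out, had 374 reads in vCasΦ RNP replicate 3 and 0 in the controls. Reads of the 10 leading deletions were present in the controls below the minimum of 100 per pattern, with 51 to 80 reads per library aligned to gRNA5. Their source was not tested.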

How the results depend on the processing

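Of the 26 results, 23 had a test with a smallest p under 0.05. For these, 148 of 186 alternatives kept the direction and the side of the threshold, as did 403 of 419 fits without 1 library. Efficiency by genotype kept both under every alternative run. Efficiency by enzyme with plasmids kept its directions, with a smallest p of 0.0556. The 100-read minimum limits what is counted where editing was low, in the WTCasΦ libraries of Col-0 and of the fwa-4 plasmids. Causes of the changes below were not tested, and p-values are from exact permutation tests, adjusted where there is a family.

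Size and start against WTCasΦ had no settled direction. For vCasΦ minus WTCasΦ, mean size was 1.65 bp at a minimum of 10 reads, 0.488 bp at a minimum share of 0.01%, 3.55 bp with indels from 1 bp, 1.90 bp with equal weight per pattern and 0.25 bp by medians. Mean start was -0.0412 nt at the minimum share, -3.44 nt from 1 bp, -0.163 nt with equal weight and -0.25 nt by medians. For nCasΦ minus WTCasΦ, size was 0.549 bp at 10 reads, 2.35 bp from 1 bp and 1.26 bp with equal weight, and start was -3.01 nt from 1 bp and -0.25 nt by medians. For vCasΦ minus nCasΦ, size was 1.20 bp with equal weight (p = 0.427) and 1 bp by medians (p = 0.131), and start passed at -0.596 nt with the minimum share (p = 0.00198) and at -0.406 nt with deletions moved to the PAM side (p = 0.0357). For fwa-4 minus Col-0, size was 3.96 bp (p = 0.0463) and start -1.71 nt (p = 0.0463) with equal weight, size was -0.833 bp by medians, and start was 2.52 nt at 10 reads. For RNP minus plasmid, equal weight gave 0.903 bp and 0.357 nt (p = 0.967). Run indels of at least 3 bp were 0.00222 percentage points higher in edited libraries (p = 0.147).

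Replicate numbers were compared over 23 patterns: 12 correlations ran from -0.307 to 0.521 and 6 were over 0.1, so the numbers did not pair the libraries. With the number as a replicate block, RNP minus plasmid was -2.48 bp (p = 0.0781) and 1.51 nt (p = 0.156), efficiency by genotype was 3.63 points (p = 0.00781), and no other call changed. For size and start by delivery, the unadjusted p was the smallest that the pairs allow.

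Chosen after seeing the data, RNP replicates 3 and 4 alone gave a delivery difference of 7.88 points (p = 0.00926), -1.72 bp (p = 0.394) and 1.47 nt (p = 0.0926), and log2 percentages gave 1.71 (p = 0.0148). Replicates 1 and 2 alone gave 0.162 bp for vCasΦ minus WTCasΦ, and for gRNA5 1.87 points over gRNA4 and 2.96 over gRNA6 (p = 0.389 each) and 0.446 bp over gRNA4 (p = 0.0926). Single deletions of at least 3 bp in the run were 0.00178 points higher in edited libraries (p = 0.200), and 0.00103 points without RNP vCasΦ replicate 3 (p = 0.0173). With all guides placed alike, gRNA5 started 1.39 or 2.08 nt beyond gRNA4. Libraries with at least 10 patterns gave -0.0176 bp for fwa-4 minus Col-0.

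Leaving out each library gave 3.95 to 5.72 points for delivery, passing without RNP nCasΦ replicate 1 (5.72, p = 0.0182) or RNP vCasΦ replicate 1 (5.15, p = 0.0373). Size ran from -2.08 to 2.04 bp for vCasΦ minus WTCasΦ, -3.11 to 1.01 bp for nCasΦ minus WTCasΦ, -0.449 to 1.22 bp for genotype and -3.47 to -0.727 bp for delivery. Start ran from -0.867 to 1.68 nt, -0.293 to 2.26 nt and -0.744 to 0.256 nt for the same first 3, and from -0.487 to -0.305 nt for vCasΦ minus nCasΦ. The extremes opposite in sign came without WTCasΦ plasmid fwa-4 replicate 1 or, for genotype, RNP Col-0 replicate 1.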
